A study of Drosophila melanogaster with 54 samples.

Results

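Ubx and Abd-A are neighbouring Hox proteins of the bithorax complex, and their binding regions in the presence of Homothorax (Hth) were compared here. The members are the regions that carry the group names Ubx+Hth and Abd-A+Hth in the deposited lists, called at q 0.01, with the q 1e-10 lists as the stricter set. The Ubx+Hth list held 5656 regions and the Abd-A+Hth list 6506. Merged where they touched, they gave 7079 regions, against 16214 for the merged regions of all 18 lists. A region was taken as shared when it overlapped a region of the other list by at least 1 bp. The rest were called Ubx-exclusive or Abd-A-exclusive ("only" in the plots), words that refer to the list and not to binding below its threshold.

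Hox proteins are homeodomain transcription factors that give body segments their identity. Ubx acts in the posterior thorax and anterior abdomen and Abd-A in the abdomen, and their homeodomains are nearly alike in sequence. On their own Hox proteins bind short AT-rich sites, and on joint sites they bind as a complex with the TALE homeodomain protein Extradenticle (Exd), which Hth carries into the nucleus.

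The cells were Kc167, a Drosophila line of embryonic origin with haemocyte-like properties, which lack Hth and hold Exd in the cytoplasm. They were transiently transfected with pMT_Hth-2A-eGFP-Ubx or pMT-Hth-2A-eGFP-AbdA, plasmids in which a copper-inducible metallothionein promoter drives Hth and the eGFP-tagged Hox protein from 1 transcript, split by a 2A peptide. Expression was induced with 1 mM CuSO4 for 4 h, followed by fixation with 1% formaldehyde (10 min), a sort that kept cells within a shared window of GFP brightness, and precipitation with an anti-GFP antibody. Each group had 2 ChIP libraries and 1 input library, and the series has 54 samples in all. The other groups used here were expressed and processed in the same way: Hth alone (as Hth-eGFP), Exd with Hth, each of the other 6 Hox proteins with Hth, and each of the 8 Hox proteins without it. In the study's read summary the groups of the 3 bithorax complex proteins stand on another sequencing platform than the remaining groups, and Abd-A+Hth and Abd-B+Hth have identical input entries, so they may share an input. The platform does not differ within the pair. Where the pair is set beside Lab, Pb, Dfd, Scr, Antp, Hth alone or Exd with Hth, the platform and the protein cannot be told apart.

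Each list combines both replicates of its group, so no value below has a replicate error and no test between the groups was possible. The lists hold no heights or read numbers, so read depth could not be accounted for. It can affect which regions are called and how wide they are. In the study's read summary the ChIP library of the pair with fewest mapped reads is of Abd-A+Hth. The library with most is of Ubx+Hth. The effect of depth on the lists was not tested. Intervals are 95% Wilson intervals for a share and 95% Newcombe intervals for a difference of shares. They cover the counting of regions only and treat regions as independent, which neighbouring regions are not.

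The windows shown next are the central 200 bp of regions among the longest shared and exclusive ones that hold an Exd-Hox site there and no UTR, chosen to show such sites in each class. Exd-Hox site stands for TGATTAAT, TGATTGAT or TGATTTAT on either strand, of which neighbouring copies can overlap, and its letters are in capitals. The exclusive regions printed were taken from those in the q 1e-10 list of their protein that overlapped no region of the other protein even at q 0.01. Sequence is from the RefSeq copy of Release 6 (dm6), 5′ to 3′, with positions counted from 1. The first 3 are from shared regions, in introns of bab1, a BTB-domain transcription factor gene, of kirre, which encodes a cell adhesion protein of myoblast fusion, and of CG9674.
bab1 chr3L:1090493-1090692, plus strand: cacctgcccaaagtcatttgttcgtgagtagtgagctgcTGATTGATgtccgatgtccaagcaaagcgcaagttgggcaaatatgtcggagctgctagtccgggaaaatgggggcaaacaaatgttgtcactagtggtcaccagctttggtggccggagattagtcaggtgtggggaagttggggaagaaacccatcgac
kirre chrX:3059545-3059744, plus strand: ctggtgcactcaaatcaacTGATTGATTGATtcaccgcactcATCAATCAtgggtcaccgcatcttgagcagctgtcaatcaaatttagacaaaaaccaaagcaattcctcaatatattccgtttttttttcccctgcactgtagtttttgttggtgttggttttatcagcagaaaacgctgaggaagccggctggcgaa
CG9674 chr3L:16801342-16801541, plus strand: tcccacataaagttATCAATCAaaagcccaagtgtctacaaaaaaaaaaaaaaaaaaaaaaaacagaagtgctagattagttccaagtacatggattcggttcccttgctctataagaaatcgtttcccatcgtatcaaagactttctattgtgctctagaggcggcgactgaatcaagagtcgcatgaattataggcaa
The next is from a Ubx-exclusive region, again in an intron of kirre.
kirre chrX:3063430-3063629, plus strand: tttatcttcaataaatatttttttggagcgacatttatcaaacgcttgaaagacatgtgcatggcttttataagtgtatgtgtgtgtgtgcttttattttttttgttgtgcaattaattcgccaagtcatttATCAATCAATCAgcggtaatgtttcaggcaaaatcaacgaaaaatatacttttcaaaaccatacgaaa
The last 3 are from Abd-A-exclusive regions, in an intron of foxo, a forkhead factor downstream of insulin signalling, in an intron of elB, a zinc finger gene, and between genes nearest to mtSSB, which encodes a mitochondrial DNA-binding protein.
foxo chr3R:14071545-14071744, plus strand: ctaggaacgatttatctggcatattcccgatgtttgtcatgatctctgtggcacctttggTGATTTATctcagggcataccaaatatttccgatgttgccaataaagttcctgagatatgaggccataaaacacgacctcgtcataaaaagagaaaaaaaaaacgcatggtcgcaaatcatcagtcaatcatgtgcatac
elB chr2L:14399339-14399538, plus strand: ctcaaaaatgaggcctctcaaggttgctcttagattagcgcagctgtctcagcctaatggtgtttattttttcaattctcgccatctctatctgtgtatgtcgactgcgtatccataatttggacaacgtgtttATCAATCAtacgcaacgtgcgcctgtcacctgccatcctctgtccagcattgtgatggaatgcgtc
mtSSB chr3R:16206422-16206621, plus strand: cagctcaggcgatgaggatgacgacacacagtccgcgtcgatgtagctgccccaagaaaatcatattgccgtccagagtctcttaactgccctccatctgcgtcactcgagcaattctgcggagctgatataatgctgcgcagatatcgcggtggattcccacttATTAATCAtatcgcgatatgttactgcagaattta

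The windows from bab1, CG9674, elB and both kirre regions carried TGATTGAT. In both kirre windows this word occurred in overlapping tandem copies, in the shared region at positions 20 and 24 of the window with a further copy on the other strand at position 43, and in the Ubx-exclusive region at positions 133 and 137 on the minus strand. The Ubx-exclusive kirre region (X 3063406 to 3063653) lay 2457 bp from the nearest Abd-A+Hth region and was also in the lists of Lab, Pb, Dfd, Antp and Abd-B with Hth. The foxo window held TGATTTAT and the mtSSB window TGATTAAT. The foxo region was also listed for Pb, Dfd, Scr, Antp and Abd-B with Hth, elB for all 6 other Hox proteins with Hth, and mtSSB for Scr and Abd-B with Hth. Of the exclusive regions printed, only that in foxo was outside the Exd+Hth list. None of these windows was chosen at random, and how common the sites are in each class is given further on.

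Most of the Ubx+Hth list was contained in the Abd-A+Hth list, while the reverse share was lower. Of the Ubx+Hth regions, 5031 (88.9%, interval 88.1 to 89.7) overlapped an Abd-A+Hth region. Of the Abd-A+Hth regions, 4679 (71.9%, 70.8 to 73.0) overlapped a Ubx+Hth region. This left 625 Ubx-exclusive and 1827 Abd-A-exclusive regions beside 4627 merged shared regions, so that 65.4% of the merged regions were shared. In the q 1e-10 lists, with 2226 and 3026 regions, the shares were 88.8% and 63.1%, with 250 and 1116 exclusive regions. The Abd-A+Hth list also covered more sequence, 4237 kb against 2993 kb, and its regions were wider, with a median of 521 bp against 428 bp.

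Few of the strict differences were differences at both thresholds. Of the 250 strict Ubx+Hth regions that overlapped no strict Abd-A+Hth region, 230 (92.0%, 88 to 94.8) overlapped an Abd-A+Hth region called at q 0.01. Of the 1116 strict Abd-A+Hth regions that overlapped no strict Ubx+Hth region, 1028 (92.1%, 90.4 to 93.6) overlapped a Ubx+Hth region at q 0.01. This left 20 Ubx-exclusive and 88 Abd-A-exclusive regions that were strict in their own list and absent from the other list at either threshold, 0.898% and 2.91% of the strict lists. They are called clear exclusive regions in what follows. Of the 88, 20 lay inside a broader Abd-A+Hth region of the q 0.01 list that a Ubx+Hth region touched elsewhere, and of the 20 Ubx regions 0 did. Seen from the other side, 3.2% of the Ubx-exclusive and 3.61% of the Abd-A-exclusive regions at q 0.01 held a strict region of their own protein, against 40.9% and 56.7% of the shared regions in each list.

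**Figure D1:**
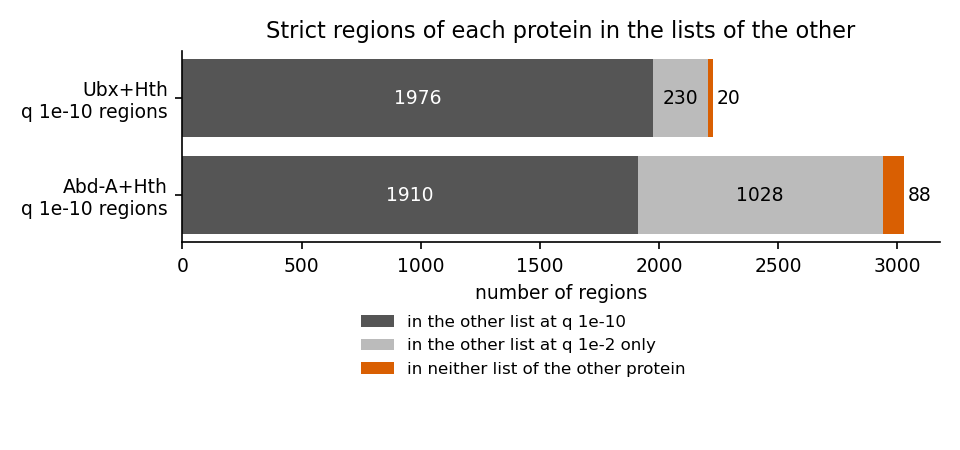
Number of regions (horizontal axis) of each strict list, q 1e-10, split by whether they overlapped the other protein's strict list, its q 0.01 list only, or neither. Of 2226 Ubx+Hth regions 20 were in neither list of Abd-A+Hth, and of 3026 Abd-A+Hth regions 88 were in neither list of Ubx+Hth.

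Exclusive regions were narrower than shared ones. The median width was 270 bp for Ubx-exclusive and 387 bp for Abd-A-exclusive regions, and 637 bp for merged shared regions. Within each list the shared regions had medians of 458 bp (Ubx+Hth) and 608 bp (Abd-A+Hth). The widest Ubx-exclusive region measured 1549 bp, in grh, and the widest shared one 4790 bp. Exclusive regions mostly stood apart from the other list rather than beside it. The median gap to the nearest region of the other protein was 3948 bp for Ubx-exclusive regions, of which 18.1% (15.3 to 21.3) lay within 500 bp. It was 2061 bp for Abd-A-exclusive regions, with 25.0% (23.1 to 27.1) within 500 bp.

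Similarity over the whole lists was expressed as the Jaccard index, the base pairs covered by both lists divided by those covered by either. It was 0.595 for Ubx+Hth and Abd-A+Hth, rank 2 of the 28 pairs of Hox+Hth lists. Scr+Hth and Abd-B+Hth stood at 0.608, Scr+Hth and Abd-A+Hth at 0.571, and Abd-A+Hth and Abd-B+Hth at 0.555. At q 1e-10 the pair was again at rank 2, with 0.523 after 0.528 for Scr+Hth and Abd-B+Hth. For Ubx+Hth the closest of the other 7 Hox+Hth lists was Abd-A+Hth, followed by Antp+Hth at 0.425. Without Hth the index of Ubx and Abd-A was 0.42. Abd-A+Hth stood nearer to Abd-A without Hth (0.692) than to Ubx+Hth, whereas Ubx+Hth stood nearer to Abd-A+Hth than to Ubx without Hth (0.521) and was at 0.572 with Abd-A without Hth. The index moves with list length and region width, and no error can be attached to these ranks.

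The exclusive regions of the pair differed in how often other proteins of the series were found there. Hth alone overlapped 155 Ubx-exclusive (24.8%, 21.6 to 28.3) and 671 Abd-A-exclusive regions (36.7%, 34.5 to 39.0), against 3328 of the shared ones (71.9%, 70.6 to 73.2). Exd with Hth overlapped 371 (59.4%, 55.5 to 63.1), 1554 (85.1%, 83.3 to 86.6) and 4342 (93.8%, 93.1 to 94.5). The difference of Ubx-exclusive minus Abd-A-exclusive was -11.9 percentage points (-15.9 to -7.78) for Hth and -25.7 points (-29.9 to -21.5) for Exd+Hth. Over regions of all widths, Ubx-exclusive regions were the class that least often overlapped the Hth or the Exd+Hth list. Both lists come from cells given no Hox plasmid, so they do not show whether the cofactors were present beside Ubx or Abd-A. Shared regions were also wider, and shares within width ranges are given below. Within those ranges the Hth intervals of the exclusive classes overlapped, so for Hth their order cannot be told apart from width. When central 200 bp windows replaced the regions throughout, the Hth difference turned to 10.9 points. In that setting overlapping regions with different centres count as exclusive.

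Scr+Hth separated the exclusive classes most among the other Hox+Hth lists. It overlapped 1365 Abd-A-exclusive regions (74.7%, 72.7 to 76.7) and 200 Ubx-exclusive ones (32.0%, 28.5 to 35.8), a difference of -42.7 points (-46.7 to -38.4). In the q 1e-10 lists this difference was -45.1 points. For Pb+Hth it was -15.9 points, for Dfd+Hth -13.3 and for Abd-B+Hth -11.0. Antp+Hth was the exception, with 86 Ubx-exclusive (13.8%) and 187 Abd-A-exclusive regions (10.2%), 3.52 points (0.639 to 6.73) in the other direction, and for Lab+Hth the interval of the difference (-4.32 to 2.51) included 0. Overlap with Scr+Hth also rose with region width. Among regions under 300 bp Scr+Hth overlapped 27.7% (23.7 to 32.1) of 426 Ubx-exclusive and 59.2% (53.9 to 64.3) of 336 Abd-A-exclusive regions, and Exd+Hth 57.5% and 73.5%. From 300 to 500 bp the Scr+Hth shares were 41.0% (34.1 to 48.2) of 183 and 73.3% (70.5 to 75.9) of 1033 regions, so the order was the same in both ranges. For Hth these narrow regions gave 23.2% (19.5 to 27.5) and 26.5% (22.1 to 31.5), and regions of 300 to 500 bp 28.4% (22.4 to 35.3) and 33.6% (30.8 to 36.5), with overlapping intervals in both ranges. From 500 bp on Hth overlapped 4 of 16 Ubx-exclusive and 235 of 458 Abd-A-exclusive regions (51.3%, 46.7 to 55.9). Of the 91 shared regions under 300 bp, Hth overlapped 31.9% (23.2 to 42.0), Exd+Hth 78.0% and Scr+Hth 53.8% (43.7 to 63.7). Of the 1398 shared regions of 300 to 500 bp, Hth overlapped 49.9% (47.3 to 52.5) and Scr+Hth 81.9% (79.8 to 83.8). From 500 bp on Hth overlapped 82.9% of the shared regions.

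Counted over the other 6 Hox+Hth lists, most exclusive regions were in some of them. Of the Ubx-exclusive regions 79 (12.6%, 10.3 to 15.5) overlapped none of the 6, and of the Abd-A-exclusive ones 64 (3.5%, 2.75 to 4.45). Among shared regions 20 (0.432%) overlapped none and 1385 (29.9%) overlapped all 6. The median number of other lists was 2 for Ubx-exclusive, 3 for Abd-A-exclusive and 5 for shared regions. With the lists without Hth, Hth alone and Exd+Hth added, 33 Ubx-exclusive (5.28%) and 4 Abd-A-exclusive regions (0.219%) were in none of the other 16 lists.

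**Figure D2:**
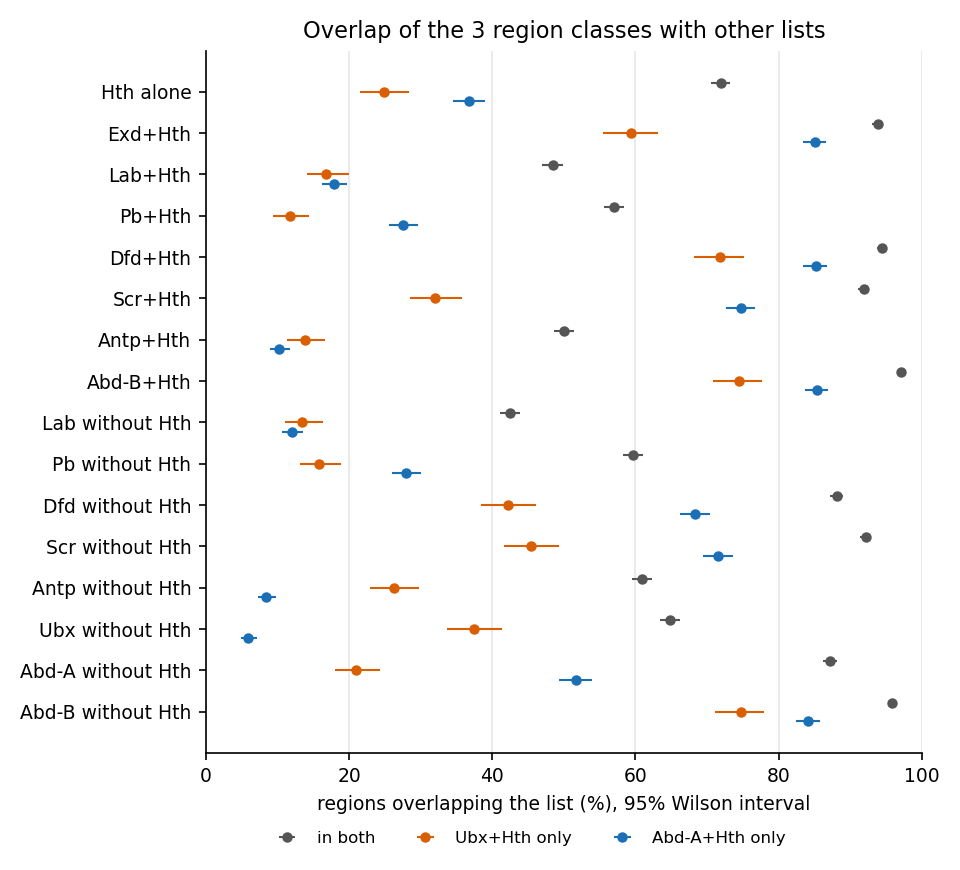
Share of regions (horizontal axis, percent, with 95% Wilson intervals as bars) of each class that overlapped each of 16 other lists at q 0.01. For Scr+Hth the Ubx-exclusive class stood at 32.0% and the Abd-A-exclusive class at 74.7%, while for Antp without Hth they stood at 26.2% and 8.43%.

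**Figure D3:**
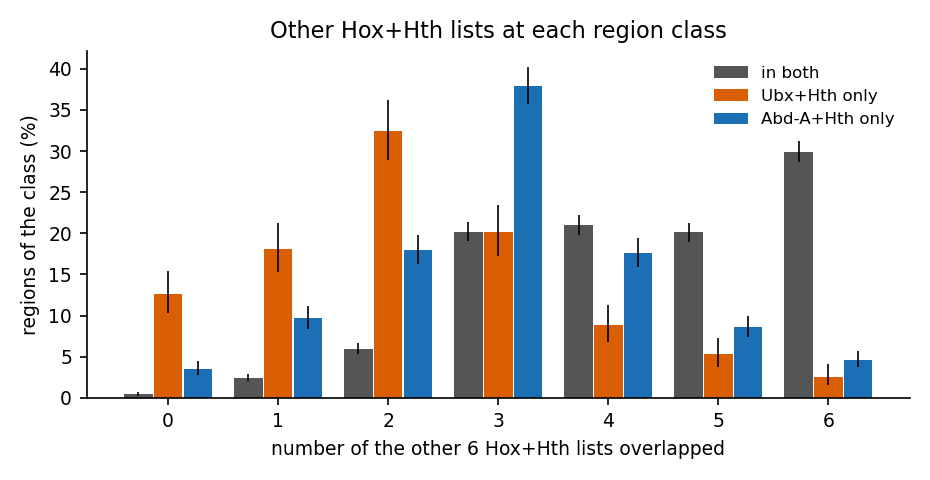
Share of regions of each class (vertical axis, percent, with 95% Wilson intervals) by the number of the other 6 Hox+Hth lists they overlapped (horizontal axis). Shared regions peaked at 6 lists with 29.9%, Abd-A-exclusive regions at 3 with 37.9% and Ubx-exclusive regions at 2 with 32.5%.

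The same protein without Hth was found at many exclusive regions. Of the Ubx-exclusive regions 234 (37.4%, 33.7 to 41.3) overlapped a region of Ubx without Hth and 131 (21.0%) a region of Abd-A without Hth. Of the Abd-A-exclusive regions 944 (51.7%, 49.4 to 54) overlapped Abd-A without Hth and 108 (5.91%) Ubx without Hth. Shared regions overlapped Ubx without Hth in 64.9% and Abd-A without Hth in 87.2%. There were 63 Ubx-exclusive regions (10.1%, 7.96 to 12.7) listed for Abd-A without Hth and not for Ubx without Hth, and 15 Abd-A-exclusive ones (0.821%) in the opposite position. Neither protein had a region without Hth at 328 Ubx-exclusive (52.5%) and 868 Abd-A-exclusive regions (47.5%). Antp without Hth overlapped 26.2% of the Ubx-exclusive and 8.43% of the Abd-A-exclusive regions, a difference of 17.8 points (14.2 to 21.6).

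Ubx-exclusive regions lay closer to gene starts than the other classes. The centre was within 100 bp of an annotated start site of a protein-coding gene in 285 Ubx-exclusive regions (45.6%, 41.7 to 49.5), 362 Abd-A-exclusive regions (19.8%, 18.1 to 21.7) and 864 shared ones (18.7%, 17.6 to 19.8). Within 500 bp the shares were 56.2%, 42.4% and 42.7%, and the Ubx-exclusive share was 13.8 points (9.26 to 18.2) above the Abd-A-exclusive one. For the merged regions of all 8 Hox+Hth lists the share within 500 bp was 34.6%. The median distance was 181 bp, 738 bp and 782 bp in the same order. Under 300 bp, 50.2% (45.5 to 55) of Ubx-exclusive, 24.7% (20.4 to 29.6) of Abd-A-exclusive and 49.5% (39.4 to 59.5) of the 91 shared regions lay within 100 bp, so the share among narrow shared regions was close to that of the Ubx-exclusive ones and above that of the Abd-A-exclusive ones. From 300 to 500 bp the shares were 38.8% (32.0 to 46.0), 20.3% (18 to 22.9) and 31.8% (29.4 to 34.3) in the same order.

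The side of the start site differed as well. Among regions with a start site within 500 bp, the centre was upstream of the nearest in 257 of 351 Ubx-exclusive (73.2%, 68.4 to 77.6), 307 of 774 Abd-A-exclusive (39.7%, 36.3 to 43.2) and 963 of 1978 shared regions (48.7%, 46.5 to 50.9). Start sites on both strands lay within 500 bp in 33.0% (28.3 to 38.1), 19.6% (17.0 to 22.6) and 18.8% of these. By annotation, 49.1% of Ubx-exclusive centres were intergenic and 26.2% intronic. For Abd-A-exclusive centres 17.5% were intergenic and 53.1% intronic, close to the 52.1% intronic among shared regions. Centres in 5' UTRs made up 18.4%, 20.3% and 19.5%, and those in coding exons 1.44%, 4.87% and 1.99%. Overlap with the Exd+Hth list differed between the exclusive classes both near start sites and away from them. Near start sites Exd+Hth overlapped 62.1% of Ubx-exclusive and 84.0% of Abd-A-exclusive regions, and farther away 55.8% and 85.9%.

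**Figure D4:**
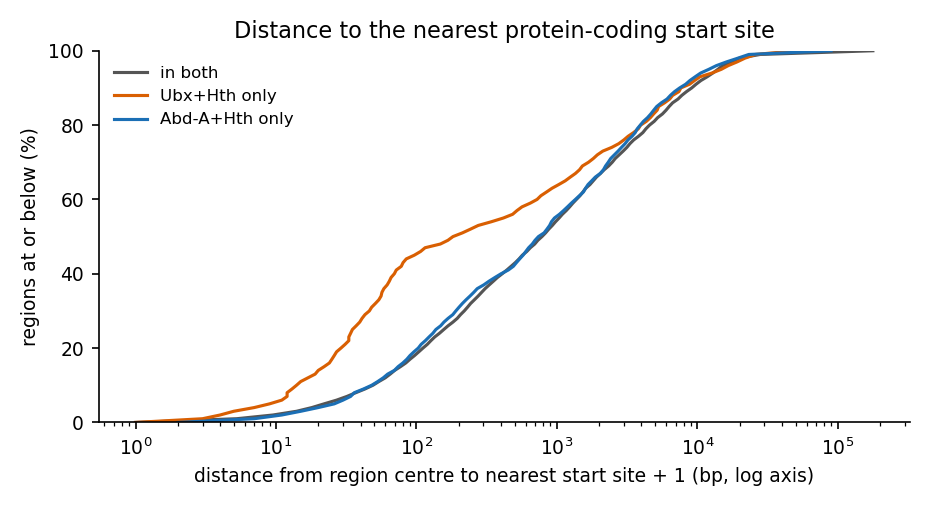
Cumulative share of regions (vertical axis, percent) against the distance from the region centre to the nearest start site of a protein-coding gene plus 1 (bp, log axis). The Ubx-exclusive curve reaches 45.6% at 100 bp, where the other classes are at 18.7% and 19.8%.

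On the long chromosome arms the share of each class lay near the arm's share of the sequence. Chromosome 4 held 14 Ubx-exclusive regions (2.24%, 1.34 to 3.72), 7 Abd-A-exclusive ones (0.383%, 0.186 to 0.789) and 17 shared ones (0.367%), and makes up 1.01% of the 6 arms.

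Exd-Hox sites were uncommon in all classes. Any of the 3 words was present in the central 200 bp of 54 Ubx-exclusive (8.64%, 6.68 to 11.1), 97 Abd-A-exclusive (5.31%, 4.37 to 6.43) and 262 shared regions (5.66%, 5.03 to 6.37), against 9.59% for the merged regions of all 8 Hox+Hth lists. The Ubx-exclusive share was 3.33 points (1.07 to 5.97) above the Abd-A-exclusive one. With the q 1e-10 lists or with whole regions searched, the interval of this difference included 0. The classes differed in TGATTTAT, with 5.6% (4.05 to 7.69), 2.41% (1.8 to 3.22) and 2.94% (2.49 to 3.46) of windows. Mean GC content of the windows was 42.0%, 45.2% and 44.3% in the same order, and its part in the motif shares was not tested. For TGATTAAT the shares were 1.44%, 1.48% and 1.73% and for TGATTGAT 1.76%, 1.59% and 1.15%, where the intervals overlapped. In flanking windows of the same length, centred 1000 bp to either side and clear of all listed regions, TGATTTAT was in 2.16%, 1.67% and 1.58%.

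TGATTTAT was unevenly placed within the exclusive classes. It was in 26 of the 391 Ubx-exclusive regions (6.65%) not listed for Ubx without Hth and in 9 of the 234 (3.85%) that were. For Abd-A it was in 38 of 883 (4.3%, 3.15 to 5.86) and 6 of 944 (0.636%, 0.292 to 1.38), a difference of 3.67 points (2.3 to 5.25). For Ubx the interval of the same difference included 0 (-1.09 to 6.23). For any of the 3 Exd-Hox words, the difference was 4.93 points (0.359 to 9.05) for Ubx and 6.38 points (4.35 to 8.56) for Abd-A. Away from start sites TGATTTAT was in 8.03% (5.36 to 11.9) of Ubx-exclusive and 3.13% (2.24 to 4.37) of Abd-A-exclusive regions. Within 500 bp of a start site the shares were 3.7% and 1.42%, so the order was the same in both places.

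Of the other sequences searched, the core of sites for the GAGA factor, a protein of open promoters and Polycomb elements, set the classes apart. GAGAG on either strand, of which copies can overlap, was in 134 Ubx-exclusive (21.4%, 18.4 to 24.8), 602 Abd-A-exclusive (33.0%, 30.8 to 35.1) and 1701 shared windows (36.8%, 35.4 to 38.2). The flanking shares were 19.1%, 17.7% and 19.99%. The Ubx-exclusive share was 11.5 points lower than the Abd-A-exclusive one, with -15.3 to -7.52 as the interval, and lower both near start sites (19.9% and 30.7%) and away from them (23.4% and 34.6%). For the Hox cores TTAATGA and TTAATTA, counted jointly, the shares were 8.64%, 11.3% and 9.98%, and for the Abd-B-type cores (TTTAT followed by GA, GG, TA or TG) 24.3%, 27.8% and 26.3%. The Hth core TGACAG was in 9.76%, 8.65% and 7.95%, the GATA cores AGATAA and TGATAA in 25.3%, 28.3% and 27.4%, and the AP-1 sites TGACTCA and TGAGTCA in 2.72%, 4.11% and 3.26%. For each of these the interval of the difference between the exclusive classes included 0. The same held near start sites and away from them, except for the Hth core away from them. There it was in 14.2% of Ubx-exclusive and 9.40% of Abd-A-exclusive windows, a difference of 4.83 points (0.717 to 9.74). For the merged regions of all 8 Hox+Hth lists the shares were 24.9% for GAGAG and 22.6%, 29.3%, 8.72%, 26.6% and 2.71% for the others in the order given. The GAGA words and all others were searched as exact letters, and a match says nothing of binding by the factor.

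**Figure D5:**
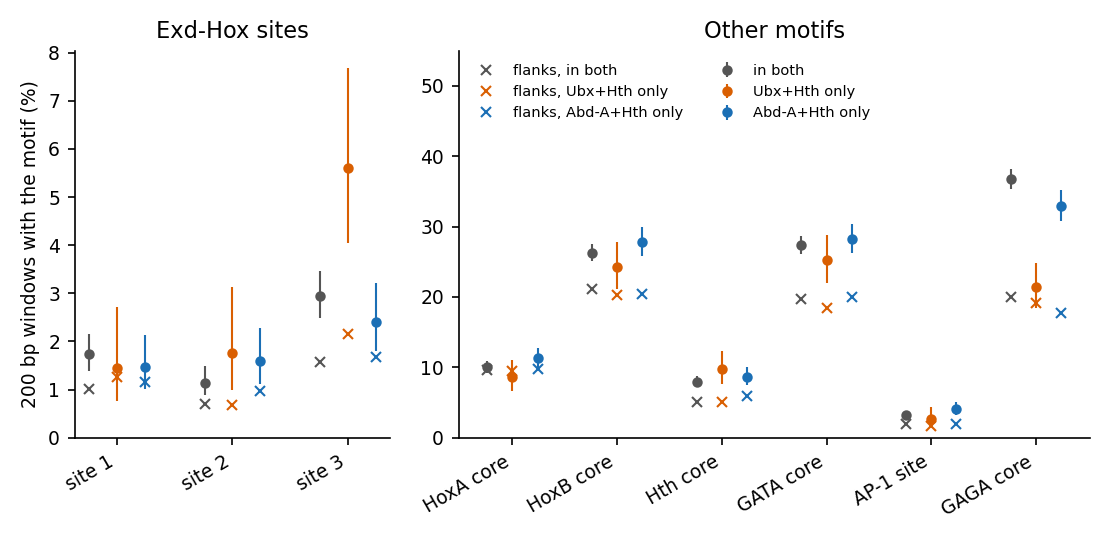
Share of central 200 bp windows (vertical axis, percent, with 95% Wilson intervals) holding each Exd-Hox site (left, sites 1 to 3 being TGATTAAT, TGATTGAT and TGATTTAT) or other motif (right, HoxA and HoxB being the Hox and the Abd-B-type cores), with flanking windows as crosses. Site 3 was in 5.6% of Ubx-exclusive against 2.41% of Abd-A-exclusive windows, and the GAGA core in 21.4% against 33.0%.

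The clear exclusive regions can be described singly. The 20 clear Ubx-exclusive regions were 193 to 1094 bp wide. The longest, of 1094 bp (2R 17815374 to 17816467), lay in an intron of grh, which encodes the epithelial transcription factor Grainyhead, and the next, of 410 bp (2R 17818206 to 17818615), in the same gene. Both were also listed for Antp without Hth and for no other of the remaining lists, and the longer held TGATTGAT in its centre. At q 0.01 these were parts of regions of 1549 bp and 1129 bp, and another Ubx-exclusive region of 525 bp stood between them, with 65.1% of its length in exons. The other 18 were between 193 and 292 bp wide.

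Of the clear Ubx-exclusive regions 10 had their centre within 100 bp of a start site, and in all 10 the centre lay upstream of the nearest start. They stood at p47 (292 bp, 2R 7466659 to 7466950), at CG13917 (262 bp, 3L 1576493 to 1576754), and at CG42353, alt, dre4, IFT52, QIL1, CG8611, CG17931 and Hydr1. IFT52 encodes a protein of intraflagellar transport and dre4 a subunit of the FACT histone chaperone. The region nearest to Tollo (271 bp, 3L 15242840 to 15243110), a gene of the Toll receptor family, was intergenic, as was that nearest to CG14762 (261 bp, 2R 8014317 to 8014577). Of the 20, 17 overlapped Abd-B+Hth, 17 Antp without Hth, 15 Ubx without Hth, 4 Abd-A without Hth, 6 Exd+Hth and 5 Hth alone. In this class only the 2 grh regions were in no other Hox+Hth list.

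The 88 clear Abd-A-exclusive regions were 218 to 565 bp wide and lay mostly in introns (53 regions, 60.2%). The longest had their centres in introns, namely of Msp300, a giant protein that links nuclei to the cytoskeleton (565 bp, 2L 5108196 to 5108760), of the glycolytic enzyme gene Pgk (549 bp, 2L 2751385 to 2751933), of raw, a regulator of JNK signalling in dorsal closure (526 bp, 2L 8717144 to 8717669), of the TNF receptor gene wgn (525 bp, X 18632249 to 18632773), of Bacc (524 bp, 2L 2754992 to 2755515) and of cnc, which encodes the Nrf2-type factor Cap-n-collar (493 bp, 3R 23221028 to 23221520). All 6 overlapped Dfd+Hth, Scr+Hth, Abd-B+Hth, Exd+Hth and Hth alone. The gap to the nearest Ubx+Hth region ranged among them from 295 bp at raw to 15926 bp at Msp300. Of the 88, 83 (94.3%) overlapped Scr+Hth, 81 (92.0%) Exd+Hth, 80 Abd-B+Hth, 74 Dfd+Hth, 71 Abd-A without Hth, 38 Hth alone and 12 Antp+Hth. No other Hox+Hth list held the region of 349 bp nearest to CG4476 (3L 9210275 to 9210623), which Exd+Hth did overlap.

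Set side by side, the clear classes differed by -62.0 points (-78 to -38.9) in Exd+Hth, which overlapped 6 of the 20 and 81 of the 88. For Hth alone, at 5 of 20 and 38 of 88, the difference was -18.2 points, with an interval (-35.5 to 5.8) that included 0. A start site within 500 bp was found at 10 of 20 and 32 of 88, 13.6 points (-8.98 to 35.8).

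Very long shared regions were listed for nearly all groups. Of these, 5 lay in an intron of CG10543 (4790 bp, 2R 20996172 to 21000961), over a non-coding gene nearest to Paics (4667 bp, X 12751410 to 12756076), in an intron of kis, a chromodomain remodeller of the trithorax group (4425 bp, 2L 221147 to 225571), over the 5' UTR of the Polycomb group gene ph-p (4163 bp, X 2134774 to 2138936) and over the eye pigment transporter gene w (3686 bp, X 2789683 to 2793368), where 75.4% of the length was exonic. The first 4 overlapped all 6 other Hox+Hth lists and all 8 lists without Hth, and the w region lacked Lab in both conditions. All 5 were in both strict lists.

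At the level of genes, a region was counted when it lay in a protein-coding gene or within 1 kb of it, for 13945 genes. A Ubx+Hth region was at 4198 of them (30.1%), an Abd-A+Hth region at 4641 (33.3%) and a region of each at 3712 (26.6%). Ubx+Hth had a region and Abd-A+Hth none at 486 genes (3.49%), and the reverse held at 929 (6.66%). Exclusive regions often stood in genes with shared ones, as at 954 of the 1914 genes (13.7% of all) with an Abd-A-exclusive region and at 353 of the 896 (6.43%) with a Ubx-exclusive one. Regions of 1 protein and none of the other were at 10.1% of all genes, and regions of neither at 63.2%. At 217 genes there were exclusive regions of both kinds. At least 3 Abd-A-exclusive regions were found at 121 genes, and at least 3 Ubx-exclusive ones at 3 genes.

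Among the Hox genes, which Hox proteins are known to regulate in the fly, Ubx+Hth had regions at 7 of 8 and Abd-A+Hth at 6 of 8, against 30.1% and 33.3% of all genes. The Hox genes are long, with a median of 30.6 kb against 2.17 kb over all genes. Dfd (3R 6791836 to 6802428), a head Hox gene, had 3 regions of each protein, as did Antp, the thoracic gene (3R 6896253 to 6999228), and Abd-B, the most posterior one (3R 16927212 to 16972236). At Dfd all 3 were strict for both, at Antp 2 of each, and at Abd-B 2 of Ubx+Hth and 0 of Abd-A+Hth. Ubx itself (3R 16656623 to 16734426) had 1 shared intronic region, strict for both and present in all 8 Hox lists with and without Hth. Scr, the Hox gene of the prothorax and labium, had 2 regions of each protein and pb, of the mouthparts, 1 of each. The gene abd-A (3R 16807214 to 16830049) had 1 intronic region of Ubx+Hth (222 bp), not strict, and 0 of Abd-A+Hth, and lab had none of either. The authors had removed regions over exons carried on the plasmids, so nothing can be read from exons of Ubx, abd-A or hth.

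The cofactor gene hth itself (3R 10507561 to 10639568) had 6 Ubx+Hth and 8 Abd-A+Hth regions, with 2 Abd-A-exclusive ones and 5 and 4 strict regions. The exd gene (X 15992468 to 15996509) had 1 region of each protein, which did not overlap each other and were not strict. The TGIF-type TALE gene achi had 1 shared region and its neighbour vis 1 Abd-A-exclusive region. The metallothionein gene MtnA had 1 Abd-A-exclusive region, not strict and wholly exonic, which Exd+Hth and 2 other Hox+Hth lists shared. MtnD and MtnE, which lie next to each other, had the same shared region within reach, and the other metallothionein genes, MtnB and MtnC, had none.

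Genes known as targets of Ubx or Abd-A in the fly had regions of both proteins or of neither, with 1 exception. Of 26 such genes, 17 had regions of both, 1 (svp) of Abd-A+Hth alone, 0 of Ubx+Hth alone and 8 of neither. Over all genes these shares were 26.6%, 6.66% and 3.49%, but the listed genes are long, with a median of 16.8 kb against 2.17 kb over all genes. Dad, which encodes an inhibitor of Dpp signalling, had 5 Ubx+Hth and 7 Abd-A+Hth regions, 3 of them Abd-A-exclusive, and 2 and 6 strict ones. The wing selector partner sd had 6 regions of each, dally, a Dpp-binding glypican gene, 4 and 5, and tkv, a Dpp receptor gene, 3 and 5. Abd-A-exclusive regions were at 9 of the 26 and Ubx-exclusive ones at 0, beside 13.7% and 6.43% of all genes.

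The ecdysone response genes carried most regions of both proteins among the lists, 87 of Ubx+Hth and 93 of Abd-A+Hth, followed by the haemocyte genes with 50 and 60. All 13 ecdysone response genes had regions of both proteins, against 26.6% of all genes, and their median length was 60.7 kb against 2.17 kb. Eip75B, a nuclear receptor gene, had 20 Ubx+Hth and 24 Abd-A+Hth regions, the receptor gene EcR 18 and 16, the ETS factor gene Eip74EF 15 in each list, and ftz-f1, another nuclear receptor gene, 11 and 12. Of 16 haemocyte genes, with a median length of 14.1 kb, 11 had regions of both and 5 of neither. The Friend-of-GATA gene ush had 20 Ubx+Hth and 25 Abd-A+Hth regions with 6 Abd-A-exclusive and 1 Ubx-exclusive, the GATA factor gene srp 7 in each list, all shared, the collagen gene vkg 6 and 8, and the receptor gene Pvr 5 and 4.

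In each remaining list at most 1 gene had regions of 1 protein alone, a share near the 10.1% of all genes. Regions of both were at 26.6% of all genes and regions of neither at 63.2%. Median gene length was 1.3 kb for the Notch pathway, 6.4 kb for JNK and AP-1, 12.4 kb for clock and 2.83 kb for segmentation genes, against 2.17 kb over all genes. For the Notch pathway 8 of 13 genes had regions of both and 5 of neither, with 4 regions of each protein at N, 2 of each at E(spl)m3-HLH and Su(H), and 1 and 3 at fng, a modifier of Notch. Of 10 JNK and AP-1 genes 7 had both and 1 (hep) Abd-A+Hth alone. The JNK phosphatase gene puc had 15 Ubx+Hth and 12 Abd-A+Hth regions, the Fos gene kay 10 and 7, the kinase gene msn 6 and 5, and the TNF gene egr 3 and 3. In strict regions the counts at puc were 5 and 10 and at kay 7 and 9, the opposite order. A broad stretch can be listed as 1 region or as several, and whether this bears on these counts was not tested. Of 8 clock genes 3 had both, namely Pdp1 with 14 and 16 regions, cwo with 7 and 7 and vri with 6 and 6, while cyc had 1 of Abd-A+Hth. Of 19 segmentation genes 7 had both, 1 (eve) Ubx+Hth alone and 11 neither, with 3 and 5 at the Hedgehog receptor gene ptc, 3 and 3 at hh, 3 and 2 at hry and 1 and 1 at en. Of 12 neuronal genes 9 had neither, beside 63.2% of all genes, though their median length was 27.2 kb against 2.17 kb over all genes. Syx1A had 2 regions of each, elav 2 and 1, and brp, an active zone gene, 1 of Ubx+Hth and 0 of Abd-A+Hth, while ChAT had none.

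The genes with most exclusive regions were not the same for both proteins, though several held exclusive regions of both kinds. For Ubx they were grh, with 3 Ubx-exclusive of 4 Ubx+Hth regions, luna, a zinc finger gene (3 of 12), pigs (3 of 7), CG13784 (2 of 4) and CG17249 (2 of 2). The last places were tied, as Eip75B and Eip74EF also had 2 Ubx-exclusive regions each. Abd-A+Hth had 1 region at grh, 9 at luna, 8 at pigs, 4 at CG13784 and 0 at CG17249. Of these, 4 at pigs, 2 at CG13784 and 1 at luna were Abd-A-exclusive. For Abd-A they were mtd, with 9 Abd-A-exclusive of 14 Abd-A+Hth regions, the insulin receptor gene InR (8 of 21), Mob2 (7 of 16), bun, a TSC22-family gene (7 of 27), and the cell cycle factor gene E2f1 (6 of 21), which neighbours InR. E2f1 was tied with ush, which also had 6. Ubx+Hth had 6 regions at mtd, 16 at InR, 9 at Mob2, 23 at bun and 14 at E2f1. Of these, 1 at mtd and 1 at bun were Ubx-exclusive. Apart from CG17249 (1.53 kb), these genes were longer than the median of 2.17 kb over all genes. They ranged from 15.5 kb at CG13784 to 138 kb at luna.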

How the data were processed

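ChIP-seq of GFP-tagged proteins gave the binding regions. Alignment to dm6 by the authors used Bowtie 1.2.2 and kept only reads with 1 match. Peaks came from MACS2 2.1.1.20160309 run per replicate with the input as control (per the study and the submitters' processing notes). Regions over plasmid exons were taken out, and those called in both replicates were joined. A deposited list holds positions, a group name and a score column that is 0 throughout, so heights entered no value. Read depth was not accounted for, though it can affect which regions are called, and the weaker library can limit a list. Starts were taken as counted from 0 in the files and are printed counted from 1.

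The members, gene lists and rules were chosen with earlier results of these data known. Regions were shared at an overlap of 1 bp, and merged regions were classed by the lists they touched. Gene models were those of Ensembl release 115 (BDGP6.54), with start sites of all transcripts of protein-coding genes, and sequence was RefSeq Release 6. All 134 gene list entries matched, 2 through a synonym. A centre was placed in 5' UTR, coding exon, 3' UTR, intron, non-coding gene or intergenic sequence, in that order. Genes named were all Hox and cofactor genes, the 4 members of each other list with most regions of the pair, and the 5 genes with most exclusive regions of each kind. Genes tied for the last of these places were cut to keep 5. Where a count left 1 gene outside this rule (svp, hep, eve), it was named after its value was seen. Regions named were the 6 longest of each class, of which 1 shared region is not reported here, and the longest in no other Hox+Hth list, where clear exclusive regions stood for the exclusive classes, and the clear Ubx-exclusive regions within 100 bp of a start site, which were named after their values were seen. The gene is the shortest protein-coding gene holding the centre or the gene with the nearest start site.

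Alternatives were the q 1e-10 lists, an overlap covering 50% or more of the shorter region, counting regions within 500 bp as shared, central 200 bp windows, equal list lengths with the widest regions kept, leaving out 10 kb around Ubx, abd-A, hth and MtnA, 1000 bp from a start site, whole regions searched for sites, and clear exclusive regions. Functions were tested on simulated data, and all 20 planted values were recovered. The software was matplotlib 3.10.9, scipy 1.17.1, numpy 2.4.6 and Python 3.11.15. Windows printed were from the longest regions with a site on arms other than 2R, whose sequence was not used here for display.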

Additional observations from a re-analysis of the deposited data

How the results depend on the processing

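Of 53 alternative values for 8 results, 31 stayed within the interval-based spread of the reported value, 21 moved and 1 changed sign. For the Jaccard index this spread was a Wilson interval that treated the index as a share of the merged regions. The index is a ratio of base pairs, so that spread is a yardstick for this count and not an error. With the q 1e-10 lists the share of Abd-A+Hth regions found in Ubx+Hth was 63.1% and the Jaccard index 0.523. The Ubx-exclusive minus Abd-A-exclusive difference was then -17.3 points for Hth, -21.1 for Exd+Hth and 8.95 for start sites within 500 bp. The Exd+Hth value set the strict regions of the pair against the same Exd+Hth list as the reported value, not a stricter one. The ratio of median widths, shared over exclusive, was 1.34 in place of 1.50. Counting regions within 500 bp as shared gave 90.9% of Ubx+Hth and 78.9% of Abd-A+Hth regions as shared, and equal list lengths 82.5% and 76.2%. With central 200 bp windows the shares were 72.9% and 63.4%, the index 0.344, the differences 10.9 points for Hth (the change of sign), -5.21 for Exd+Hth, 3.70 for start sites and 1.05 for Exd-Hox sites, and the width ratio 1.25. By construction, overlapping regions with distant centres then count as exclusive. With start sites within 1000 bp the difference was 7.96 points. With clear exclusive regions the Hth difference was -18.2 points and the Exd+Hth difference -62.0, and the width ratio was 1.81. The interval of the Exd-Hox site difference included 0 with the q 1e-10 lists (2.58 points), whole regions (1.61), central windows and clear exclusive regions (4.32).

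No paired analysis was possible because each list combines the replicates of its group and no per-replicate regions were analysed. For the same reason leaving out a replicate was not run. The lists give no peak heights, so absence from a list does not show absence of binding.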
